A study of Homo sapiens with 26 samples.

Results

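Genes of the transforming growth factor beta (TGF-beta) and bone morphogenetic protein (BMP) pathways were followed through 26 RNA-seq libraries of 3 established human cell lines of esophageal squamous cell carcinoma (ESCC). They are TGFB1, TGFB2, INHBA, TGFBR1, TGFBR2, SMAD3, SMAD7, TGFBI and ID1. These 9 genes were picked by symbol from 26485 listed genes, and all 9 were present in each of the 5 expression tables. Each had a mean value of at least 10 in every comparison, so none was lost to the filter on low values, although INHBA in TE6 and TGFB2 in the TP63 experiment of KYSE180 passed it through their treated libraries. KYSE180 and TE6 express BRDT, a germ-cell member of the BET bromodomain family, while KYSE150 has little. KYSE180 was given control siRNA (siCont, n = 3) or BRDT siRNA (siBRDT, n = 3) in one experiment, and siCont (n = 2) or TP63 siRNA (siTP63, n = 2) in another. TE6 was given siCont, siBRDT or siTP63 (n = 2 each) in 1 experiment, and KYSE150 was given siCont or siTP63 (n = 2 each). siRNA-treated cells were cultured for 48 h after lipid transfection. KYSE150 cells electroporated with a BRDT expression plasmid (BRDT-OE, n = 3) were compared with cells that received the control vector (n = 3). All groups are cells of a single line grown in culture, and the labels do not say whether replicates were separate cultures, so p-values measure the spread between these samples, which may be technical.

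TGF-beta and activin ligands bind type II receptor kinases, which activate type I receptors. The activated receptors phosphorylate SMAD2 and SMAD3, whereas BMP receptors act through SMAD1, SMAD5 and SMAD9, and SMAD4 joins both branches in the nucleus. SMAD7 and other inhibitors are induced by the signal and restrain it. In squamous epithelium TGF-beta is known for growth arrest and for matrix and migration genes, and BMP signals are known for the induction of ID genes.

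Libraries held 7582089 to 19372441 reads counted in genes. BRDT values were 1017, 1043 and 1136 with siCont and 132, 147 and 198 with siBRDT in KYSE180, and 241 and 242 against 55 and 46.6 in TE6. BRDT-OE libraries had 12475 to 18833 BRDT reads and their controls 6 to 17. In KYSE150 the siCont libraries had BRDT values of 60.9 and 8.25, which differ widely, against 0 and 10.6 with siTP63, where 0 allows up to 3 reads of counting error. TP63, which encodes a squamous transcription factor, went from 2573 and 3035 to 794 and 925 in KYSE180, from 2596 and 2785 to 133 and 112 in TE6 and from 695 and 729 to 170.3 and 114 in KYSE150 with siTP63, and it was also lower with siBRDT (9399.6, 9933 and 10366 against 5924, 6724 and 7223 in KYSE180, 2596 and 2785 against 1282 and 1147 in TE6). All 6 squamous markers were above 3 reads in every library. Markers of other cell types were near 0, with at most 8 reads of DCN and of PECAM1, 16 of PDGFRB, 10 of CD3E and 4 of PTPRC, except for CD68, which was read in every library, and for VWF, CDH5 and LUM. The 6 squamous markers summed to 5621 to 5659 RPM (reads divided by the library's total and rescaled) in TE6 siCont, 2314 to 2677 in siBRDT and 1200.0 to 1293 in siTP63, and to 7739 to 8370.0 against 4759 to 4899 with siBRDT and 7302 to 7560.0 against 4632 to 4660.0 with siTP63 in KYSE180. In KYSE150 they summed to 1049 to 1308 with siCont and 566 to 780.1 with siTP63. The leukocyte sum (PTPRC, CD3E and CD68, nearly all CD68) was 47.5 to 53.2 against 20.6 to 24 RPM with siBRDT and 28.8 to 31.3 against 12.4 to 14.2 with siTP63 in KYSE180, and 35.5 to 36.9 in TE6 siCont, 19.3 to 19.7 in siBRDT and 6.2 to 8.89 in siTP63. In KYSE150 it was 29.8 to 30 against 27.9 to 32.5 with siTP63 and 95.7 to 110.5 against 78 to 81.8 with BRDT-OE. The summed endothelial markers (PECAM1, VWF and CDH5) were higher with siTP63, at 1.36 to 2.09 against 11.3 to 12.1 RPM in KYSE180, 0.796 to 1.73 against 5.43 to 11.4 in KYSE150 and 4.21 to 5.83 against 7.85 to 9.76 in TE6, and the part of these sums in the results was not tested. In bulk RNA, fewer cells with a transcript and less transcript per cell cannot be told apart.

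The 9 genes lie on 9 different chromosomes (hg38, GENCODE release 44), and all are protein coding. The ligand genes are TGFB1 (chromosome 19, 41301587 to 41353922, minus strand), TGFB2 (chromosome 1, 218345336 to 218444619, plus strand) and INHBA (chromosome 7, 41667168 to 41705834, minus strand), the last of which encodes the beta A subunit of activins. TGFBR1 (chromosome 9, 99104038 to 99154192, plus strand) encodes the type I receptor and TGFBR2 (chromosome 3, 30606601 to 30694142, plus strand) the type II receptor. SMAD3 (chromosome 15, 67063763 to 67195173, plus strand) encodes a transcription factor that the receptors activate, and SMAD7 (chromosome 18, 48919853 to 48950965, minus strand) an inhibitory SMAD. TGFBI (chromosome 5, 136028988 to 136063818, plus strand) encodes a secreted matrix protein induced by TGF-beta, and ID1 (chromosome 20, 31605283 to 31606515, plus strand) a dominant-negative helix-loop-helix protein induced by BMP. Exonic bases of TGFB1 are shared with HNRNPUL1, and those of TGFB2, INHBA and SMAD3 with antisense or embedded noncoding genes. Counting by strand was not stated, so reads of these partners cannot be told apart.

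Start-site sequences are shown for TGFBR2, TGFBI and ID1, since siBRDT lowered TGFBR2 and raised ID1 in KYSE180 and TE6 and lowered TGFBI in KYSE180. They come from RefSeq (GRCh38.p14), run 5′ to 3′ along each gene's own strand from 250 bases before the start site to 50 after it, and all 9 genes matched an entry, with 23 promoters in all. Capitals mark matches, on either strand, to the letters TGACTCA (AP-1 site), GGCGCC (a GC-rich SMAD element), CAGACA (SMAD CAGA box) or GTCTAGAC (SMAD palindrome), none of which holds another.
TGFBR2, chr3:30606351-30606650, plus strand: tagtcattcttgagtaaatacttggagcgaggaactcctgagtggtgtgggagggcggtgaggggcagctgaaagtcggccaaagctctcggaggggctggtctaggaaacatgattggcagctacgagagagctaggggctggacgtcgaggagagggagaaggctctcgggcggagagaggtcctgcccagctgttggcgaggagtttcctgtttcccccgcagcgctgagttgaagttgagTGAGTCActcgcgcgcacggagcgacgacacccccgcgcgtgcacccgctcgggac
TGFBI, chr5:136028738-136029037, plus strand: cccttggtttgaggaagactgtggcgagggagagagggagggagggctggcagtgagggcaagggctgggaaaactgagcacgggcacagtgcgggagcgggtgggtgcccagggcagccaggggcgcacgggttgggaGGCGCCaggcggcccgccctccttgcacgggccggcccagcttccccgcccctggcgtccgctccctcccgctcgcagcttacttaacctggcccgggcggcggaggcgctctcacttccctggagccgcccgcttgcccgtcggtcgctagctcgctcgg
ID1, chr20:31605039-31605338, plus strand: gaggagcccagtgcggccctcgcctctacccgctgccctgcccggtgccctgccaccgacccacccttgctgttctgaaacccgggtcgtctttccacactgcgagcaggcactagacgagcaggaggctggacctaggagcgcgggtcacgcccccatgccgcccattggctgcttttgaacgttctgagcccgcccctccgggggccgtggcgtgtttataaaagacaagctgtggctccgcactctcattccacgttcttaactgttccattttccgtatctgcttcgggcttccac
The TGFBR2 window shown held 1 AP-1 match and the TGFBI window 1 GC-rich match, while the ID1 window held none of the 4 motifs. TGFBR2 has another listed promoter (chr3:30606106-30606405), not shown, which also held none of the 4. Of the 23 promoters, several of which belong to 1 gene, 2 held AP-1 letters (in TGFBR2 and SMAD3), where 4.95% of 35116 promoters hold them. GC-rich letters were in 3 (SMAD3, TGFBI and TGFBR1, 19.2% of all), CAGA letters in 5 (INHBA, SMAD3, TGFB2 and TGFBR1, 16.9%), and the palindrome in none (0.202%). These matches describe letters only and are no evidence of binding.

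The siRNAs named in the methods are 4 against BRDT, 2 against TP63 and 1 non-targeting, and which of them went into these libraries is not given. Their strands were compared with the members' 3′ untranslated regions. For the receptor genes, the siRNAs with a match to the complement of the guide-strand seed (bases 2 to 8 of the strand that pairs with the target, so that the listed sense strand carries the matching letters, in capitals) were the following.
BRDT #4, with 1 match in TGFBR2: guagagagaacACUAAUGa
TP63 #5, with 1 match in TGFBR1: caucaugucugGACUAUUu
TP63 #8, with 1 match in TGFBR1: cgacagucuugUACAAUUu
Of 18743 genes with a 3′ untranslated region, 8.93%, 8.33% and 13.1% hold these letters. These shares are over regions of any length. Those of TGFBR1, INHBA, TGFB2 and TGFBR2 are longer than in 91.7%, 90.2%, 81.7% and 73.7% of genes. That of SMAD3, which held no match, is longer than in 90.75%. INHBA held 1 match for the non-targeting siRNA, for BRDT #3 and for TP63 #5, and TGFB2 held 1 for BRDT #2 and for TP63 #8. TGFB1, SMAD3, SMAD7, TGFBI and ID1 held none for any of the 7. Whether any such match had an effect was not tested.

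In order to compare the genes with one another, reads were divided by exonic length and by library size (RPKM). Levels from different tables were normalised separately and are given as a description. In TE6 siCont, ID1 was far above the others at 398 ± 22.5 RPKM (SD, n = 2), followed by TGFB1 at 10.7 ± 0.94 and TGFBR2 at 10.4 ± 0.655, which did not differ beyond their spread. SMAD3 (6.3 ± 0.0963) and TGFBR1 (3.57 ± 0.144) were next, while TGFBI, SMAD7, TGFB2 and INHBA were all under 1. KYSE150 vector control cells had TGFB1 first (31.3 ± 1.06, SD, n = 3), then ID1 (22.8 ± 4.34) and TGFBR2 (17.6 ± 3.07), which differed by less than the sum of their SDs. In KYSE150 siCont the order was the other way, with ID1 at 34.1 ± 9.32 (SD, n = 2) and TGFB1 at 22.2 ± 2.38. TGFB2 stood at 14.9 ± 2.94 RPKM in KYSE150 vector control and 5.41 ± 0.836 in siCont, against 0.581 ± 0.11 and 0.0659 ± 0.00822 in the siCont libraries of KYSE180. TGFBI had its highest level in KYSE180 siCont (7.82 ± 0.612 and 3.38 ± 0.869) and was under 1 in TE6 and KYSE150.

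The 2 siCont sets of KYSE180 differed from each other. ID1 was at 39.5 ± 1.11 RPKM (SD, n = 3) in the BRDT experiment and at 166 ± 26.5 (SD, n = 2) in the TP63 experiment, whereas TGFBR2 was at 35.7 ± 1.54 and 6.64 ± 1.04. SMAD3 (8.81 ± 0.647 against 2.72 ± 0.464) and TGFBR1 (7.87 ± 0.452 against 2.19 ± 0.182) also lay lower in the TP63 experiment. INHBA had similar levels in both (0.681 ± 0.105 and 0.602 ± 0.0907). Knockdown effects in KYSE180 were therefore always taken within an experiment.

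**Figure D1:**
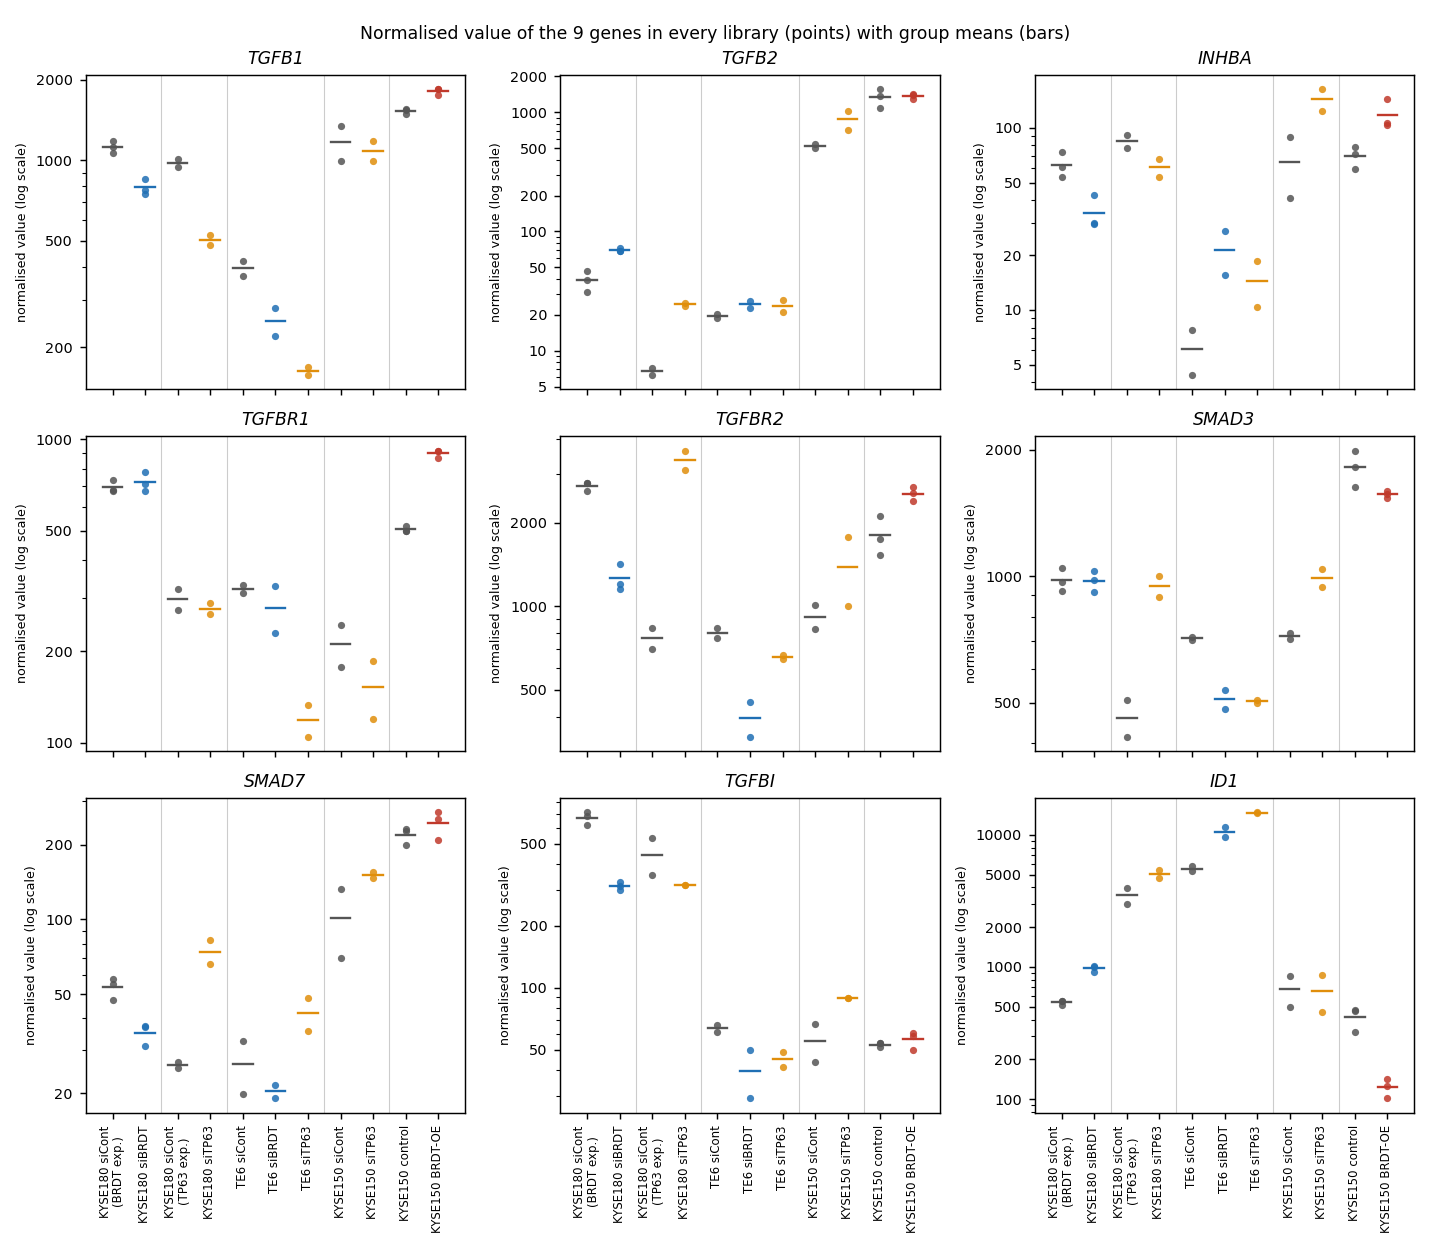
Normalised value (read counts divided by the authors' size factor, log axis) of each of the 9 genes in all 26 libraries, with 1 point per library and a horizontal bar at the group mean. Grey marks siCont or control, blue siBRDT, orange siTP63 and red BRDT-OE, and vertical lines separate the 5 tables, whose scales were set separately. ID1 lies higher after both knockdowns in KYSE180 and TE6 and lower after BRDT-OE, and TGFBR2 lies lower after siBRDT in both lines and higher after siTP63 in KYSE180.

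BRDT knockdown in KYSE180 lowered the type II receptor gene TGFBR2, the matrix target TGFBI, the activin gene INHBA, the inhibitor SMAD7 and the ligand TGFB1, and raised TGFB2 and ID1. A gene was called if its adjusted p was under 0.05 and its log2 fold change, on log2(value + 1), was 0.5 or more away from 0. By that rule 7 of the 9 genes were called (30.3% of all genes), 5 lower and 2 higher, where 15.8% of all 13589 genes tested were called lower and 14.5% higher. The median log2 fold change was -0.50 over the 9 genes and -0.01 over all genes. TGFBR1 and SMAD3 were not called. Normalised TGFBR2 values were 2592, 2771 and 2781 with siCont and 1156, 1204 and 1421 with siBRDT. The groups did not overlap, and the log2 fold change was -1.11 ± 0.08 (SE, adjusted p = 1.8e-08). TGFBI had a change of nearly the same size. Its values were 617, 680.4 and 713 with siCont and 300.2, 326 and 312 with siBRDT, a change of -1.10 ± 0.08 (SE, adjusted p = 3.8e-08). INHBA went from 53.9, 73.3 and 60.8 to 29.8, 30.1 and 42.7, with every siBRDT library under every siCont library (-0.86, adjusted p = 0.0015). SMAD7, a feedback inhibitor, had 55.1, 47.6 and 57.9 with siCont and 30.9, 37 and 37.4 with siBRDT (-0.60, adjusted p = 0.0099). The 2 genes that rose did so by similar amounts. ID1 went from 552, 550.4 and 518 to 992, 1021 and 913 (0.85, adjusted p = 1.5e-07), and TGFB2 from 46.6, 39.3 and 31.4 to 68.1, 72.9 and 68.8 (0.84, adjusted p = 8.3e-04), in both cases without overlap. For this comparison the share of all genes without an overlap was not counted. TGFB1 was just inside the fold-change limit. Its values were 1069, 1121 and 1177 against 747, 854 and 776, a change of -0.50 ± 0.07 (SE, adjusted p = 2.9e-05), which fell short of the limit without KYSE180 siCont replicate 3 (-0.47, adjusted p = 2.3e-04), without KYSE180 siBRDT replicate 1 (-0.46, adjusted p = 5.3e-05) and without KYSE180 siBRDT replicate 3 (-0.49, adjusted p = 3.6e-05). It was also outside the limit after rescaling to equal upper quartiles (-0.48), with edgeR (-0.49) and with DESeq2 (-0.50). SMAD3 stood at -0.01 (adjusted p = 0.95) and TGFBR1 at 0.05 (adjusted p = 0.59), with overlapping libraries.

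In TE6, siBRDT again lowered TGFBR2 and TGFB1 and raised ID1, and it also raised INHBA, which had few reads in this line. Of the 9 genes 4 were called (33.7% of all genes), 2 lower and 2 higher, against 18.1% lower and 15.6% higher of all 13333 genes tested. The median was -0.31 over the 9 genes and -0.04 over all genes. TGFBR2 had values of 769 and 836 with siCont and 339.9 and 453 with siBRDT, a log2 fold change of -1.03 ± 0.14 (SE, adjusted p = 1.0e-04). ID1, the most abundant of the 9 here, went from 5775 and 5296 to 11440.0 and 9699 (0.93 ± 0.10, SE, adjusted p = 2.1e-05). Neither gene showed an overlap between groups, though the share of all genes without one was not counted. With each library's trend on exonic length and GC content removed, ID1 was at 0.37, under the limit. TGFB1 went from 420.2 and 369 to 221 and 281 (-0.66 ± 0.16, SE, adjusted p = 0.0042), and it was no longer called without TE6 siCont replicate 1 (-0.56, adjusted p = 0.068) and without TE6 siBRDT replicate 1 (-0.49, adjusted p = 0.0046). INHBA rested on few reads and passed the filter on low values only through its treated libraries, so its call is given as a description. It had 5 and 9 reads in the siCont libraries and 25 and 13 in the siBRDT libraries, which gave values of 4.4 and 7.75 with siCont and 27 and 15.5 with siBRDT, without overlap, and a change of 1.65 ± 0.49 (SE, adjusted p = 0.015). Its call was lost without TE6 siCont replicate 1 (1.3, adjusted p = 0.12) and without TE6 siBRDT replicate 1 (1.27, adjusted p = 0.061), and with DESeq2 (adjusted p = 0.054). The other 5 genes were not called. SMAD3 went from 706 and 717 to 482 and 536 and stayed short of the limit (-0.48, adjusted p = 0.0044), except without TE6 siBRDT replicate 2 (-0.56, adjusted p = 3.3e-05). TGFBI was at -0.72 (adjusted p = 0.053) and passed without that same library (-1.10, adjusted p = 0.0013). TGFBR1, SMAD7 and TGFB2 were at -0.23, -0.31 and 0.30, with adjusted p of 0.34, 0.47 and 0.47.

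TP63 knockdown in KYSE180 moved the same pathway in another pattern, with TGFBR2, TGFB2, SMAD7, SMAD3 and ID1 higher and TGFB1 lower. That is 6 of the 9 genes called (49.3% of all genes), 5 higher and 1 lower, where 23.6% of all 13924 genes were higher and 25.7% lower. Rescaling to equal upper quartiles shifted the median of all genes by 0.19, so that 36.8% rather than 52.1% of all calls were lower, and the member calls were the same 5 and 1. The median was 0.54 over the 9 genes and 0.00 over all genes. TGFBR2 rose from 700.0 and 837 to 3092 and 3637, a log2 fold change of 2.13 ± 0.15 (SE, adjusted p = 1.2e-11) and the largest in size of any member in any of the 6 comparisons. Both siTP63 libraries were far above both siCont libraries, though the share of all genes without an overlap was not counted. SMAD3 rose from 415 and 506 to 894 and 1003 (1.05 ± 0.15, SE, adjusted p = 1.7e-06). Its inhibitor SMAD7 rose as well, from 25.2 and 26.7 to 66 and 82.6 (1.47 ± 0.27, SE, adjusted p = 5.6e-05). The ligand TGFB1 fell, from 942 and 1014 to 526 and 484 (-0.95 ± 0.14, SE, adjusted p = 3.5e-06). TGFB2 is weakly expressed in KYSE180 and here passed the filter on low values only through the siTP63 libraries, so its call is given as a description. It had 4 and 7 reads in the siCont libraries and 33 and 30 in the siTP63 libraries (values 6.29 and 7.19 against 25.3 and 23.8, change 1.73 ± 0.44, SE, adjusted p = 0.0017), and its call was lost without KYSE180 siTP63 replicate 1 (1.68, adjusted p = 0.059) and without KYSE180 siTP63 replicate 2 (1.77, adjusted p = 0.055). ID1 went from 3953 and 3016 to 5382 and 4702 (0.54 ± 0.16, SE, adjusted p = 0.0043), close to the limit, and was not called without KYSE180 siCont replicate 2 (0.35, adjusted p = 0.091) and without KYSE180 siTP63 replicate 1 (0.45, adjusted p = 0.073). TGFBI, INHBA and TGFBR1 were not called. TGFBI was at -0.45 (adjusted p = 0.027), with siCont values of 533 and 353 and siTP63 values of 318 and 316, and it was called without KYSE180 siCont replicate 2 (-0.75, adjusted p = 4.3e-05) and with the length and GC trend removed (-0.58). INHBA was at -0.47 (adjusted p = 0.085), called without KYSE180 siCont replicate 1 (-0.59, adjusted p = 0.035) and with that trend removed (-0.75), and TGFBR1 was at -0.10 (adjusted p = 0.62).

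With siTP63 in TE6 the type I receptor gene TGFBR1 and the ligand TGFB1 fell and ID1 rose, while TGFBR2 was not called. Of the 9 genes 3 were called (38.9% of all genes), 2 lower and 1 higher (20.6% lower and 18.3% higher over all 13333 genes), with medians of -0.29 over the 9 and -0.01 over all. The siCont libraries are those that also serve siBRDT. TGFBR1 had 332 and 312 with siCont and 105 and 133 with siTP63, a log2 fold change of -1.44 ± 0.19 (SE, adjusted p = 5.0e-05). TGFB1 went from 420.2 and 369 to 158 and 169 (-1.26 ± 0.16, SE, adjusted p = 3.2e-05). ID1 rose from 5775 and 5296 to 14841 and 14671 (1.42 ± 0.10, SE, adjusted p = 4.0e-07), and at 1054 ± 9.76 RPKM (SD, n = 2) this was its highest level in any group. None of these 3 showed an overlap, but the share of all genes without one was not counted here. In KYSE150, a different line, both siTP63 libraries lay above both siCont libraries in 24.3% of all genes tested. That share covers the higher direction only and is not the share for TE6. All 3 genes kept their direction with every library left out in turn, and were called under every alternative that kept all libraries. SMAD3 (706 and 717 against 499.6 and 508) was at -0.497 (adjusted p = 0.0031), just outside the fold-change limit, and was called without TE6 siCont replicate 1 (-0.51, adjusted p = 0.03) and without TE6 siTP63 replicate 2 (-0.51, adjusted p = 0.035). SMAD7 was at 0.69 (adjusted p = 0.1) and INHBA at 1.12 (adjusted p = 0.072). SMAD7 was called without TE6 siBRDT replicate 1 (0.69, adjusted p = 0.044) and without TE6 siBRDT replicate 2 (0.69, adjusted p = 0.044), and INHBA without TE6 siBRDT replicate 1 (1.12, adjusted p = 0.036) and without TE6 siBRDT replicate 2 (1.12, adjusted p = 0.03), and both in a fit without the siBRDT group (adjusted p = 0.035 and 0.044). INHBA was also called with edgeR (1.34, adjusted p = 0.046) and with the length and GC trend removed (1.42, adjusted p = 0.025). TGFBI, TGFBR2 and TGFB2 were at -0.48, -0.29 and 0.27 (adjusted p = 0.17, 0.1 and 0.51).

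In KYSE150 siTP63 gave no call among the 9 genes, nor among all 12335 genes tested (0%) with limma, although 2 of the 9 and 2194 of all genes had an unadjusted p under 0.05. edgeR also called none of either, and DESeq2 called none of the 9 and 461 of all genes. The targeted gene TP63 was itself not called with limma (-2.34 ± 0.26, SE, adjusted p = 0.082) or with edgeR. It was called in limma fits without the filter on low values (adjusted p = 0.027) and with the length and GC trend removed (adjusted p = 0.019). A limma fit with a block for the replicate number (adjusted p = 3.2e-05) and DESeq2 (adjusted p = 1.0e-08) also called it. The lack of calls therefore does not show that the 9 genes did not respond. A block for the replicate number called 0 of the 9 and 137 of all genes. A crossed block, added after seeing the data, called 5 and 3400. With any 1 of the 4 libraries left out, 242 to 307 of all genes were called. INHBA had 89.1 and 41.2 with siCont and 124 and 164 with siTP63, a log2 fold change of 1.22 ± 0.42 (SE, adjusted p = 0.23), and was called without KYSE150 siCont replicate 1 (1.76, adjusted p = 0.028). TGFB2 values were 500.4 and 537 against 1026 and 713 (0.72 ± 0.24, SE, adjusted p = 0.22), and SMAD3 values 732 and 708 against 1040.4 and 941 (0.46 ± 0.19, SE, adjusted p = 0.28). In these 3 genes, and in SMAD7 (0.64) and TGFBI (0.71), both siTP63 libraries lay above both siCont libraries, as they did in 24.3% of all genes tested. TGFBR2 had 827 and 1009 against 1771 and 1006, with an overlap (0.55, adjusted p = 0.42). TGFBR1 was at -0.48 (178 and 244 against 186 and 119.8), and TGFB1 and ID1 were at -0.09 and -0.06 with overlapping libraries. The median was 0.55 over the 9 genes and -0.01 over all genes.

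Raising BRDT in KYSE150 raised both receptor genes and INHBA and lowered ID1. Of the 9 genes 4 were called (26.5% of all genes), 3 higher and 1 lower, where 10.5% of all 12765 genes were higher and 16.0% lower. Rescaling to equal upper quartiles shifted the median of all genes by -0.10 and moved the share of all calls that were lower from 60.3% to 74.0%. The median was 0.15 over the 9 genes and 0.02 over all genes. ID1 had 464, 324 and 470.3 in control libraries and 125, 101 and 142 in BRDT-OE libraries, a log2 fold change of -1.76 ± 0.17 (SE, adjusted p = 2.5e-05), with no overlap. TGFBR1 rose from 520.4, 499.9 and 499 to 917, 871 and 919.6 (0.83 ± 0.07, SE, adjusted p = 1.6e-05), with the smallest SE of the 4 called genes. INHBA rose from 78.6, 71.7 and 59.2 to 106, 145 and 104 (0.74 ± 0.17, SE, adjusted p = 0.0051). TGFBR2, from 1754, 2113 and 1535 to 2547, 2690.2 and 2402 (0.51 ± 0.11, SE, adjusted p = 0.0027), had no overlap but sat at the fold-change limit. It fell short of that limit without KYSE150 control replicate 1 (0.50), without KYSE150 control replicate 3 (0.40) and without KYSE150 BRDT-OE replicate 2 (0.47), and likewise after rescaling (0.41), with edgeR (0.48), with DESeq2 (0.49) and with the length and GC trend removed (0.42). TGFB1 went from 1549, 1537 and 1492 to 1848, 1755 and 1850.5 without overlap but with a change of 0.25 (adjusted p = 0.0085). How many of all genes had no overlap with BRDT-OE was not counted. SMAD3 was at -0.21 (adjusted p = 0.054), SMAD7 at 0.15 (0.32), TGFBI at 0.08 (0.7) and TGFB2 at 0.04 (0.8).

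**Figure D2:**
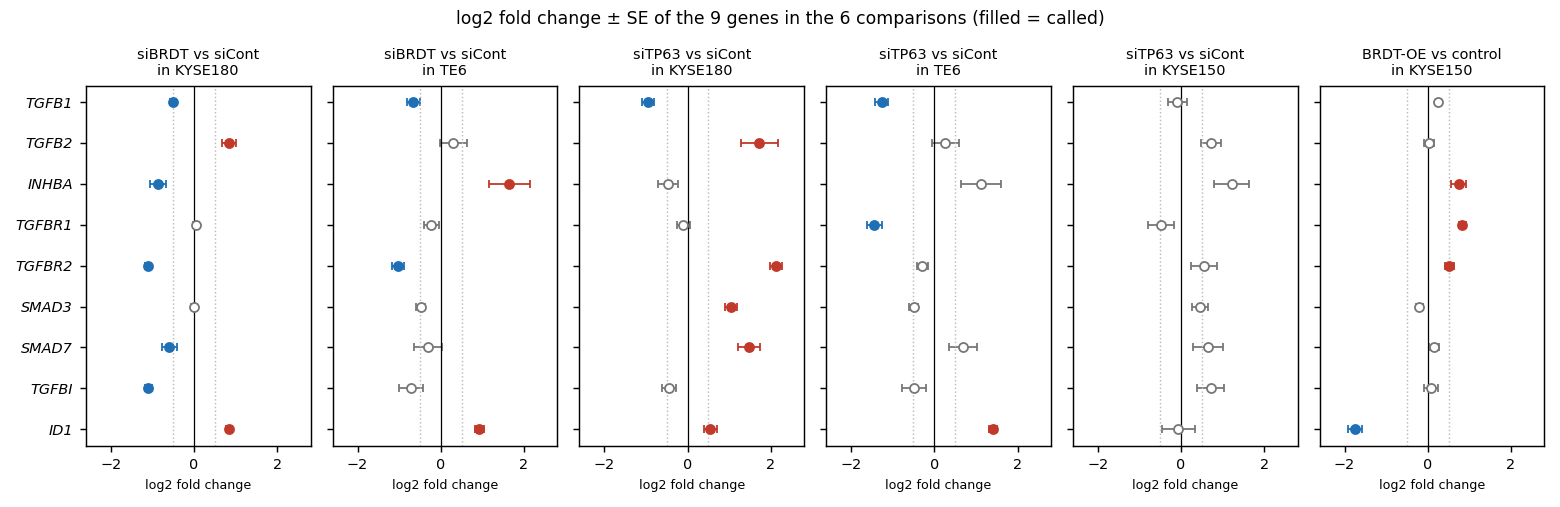
Log2 fold change with its SE (horizontal bars) of the 9 genes in each of the 6 comparisons, with filled red points for genes called higher, filled blue points for genes called lower and open points for genes not called. Dotted lines mark the fold-change limit of 0.5. TGFBR2 is at -1.11 and -1.03 with siBRDT and at 2.13 with siTP63 in KYSE180, and ID1 is filled in every panel but that of siTP63 in KYSE150.

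Across the 6 comparisons, ID1 was called in 5 (4 higher, 1 lower), TGFB1 in 4 (all lower) and TGFBR2 in 4 (2 higher, 2 lower). INHBA was called in 3 (2 higher, 1 lower). TGFB2 was called higher in 2, TGFBR1 and SMAD7 each once in either direction, SMAD3 higher in 1 and TGFBI lower in 1. The pairs of TE6 comparisons share their siCont libraries, so their values are not independent. Of all genes, 26.5% to 49.3% were called in each comparison but siTP63 in KYSE150. How many genes were called in as many comparisons was not counted. Some of these calls were lost under alternatives, among them TGFB1 with siBRDT, TGFBR2 with BRDT-OE and ID1 with siTP63 in KYSE180. The INHBA call in TE6 and the TGFB2 call with siTP63 passed the filter only through treated libraries.

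Whether the same knockdown acted alike in 2 lines was tested as a difference of log2 fold changes, each taken within its table (limma, adjusted p under 0.05 with no fold-change limit). For siBRDT in KYSE180 and TE6, 2 of the 9 genes differed, where 41.9% of all 12612 genes did. INHBA went down in KYSE180 and up in TE6, a difference (KYSE180 minus TE6) of -2.51 ± 0.47 (SE, adjusted p = 4.1e-04). In TE6, however, INHBA had few reads and passed the filter on low values only through treated libraries. SMAD3 differed by 0.48 ± 0.13 (SE, adjusted p = 0.0063). TGFBR2 and ID1 differed by -0.08 ± 0.16 (SE, adjusted p = 0.7) and -0.08 ± 0.12 (SE, adjusted p = 0.63), and these 2 genes were called in the same direction in both lines. TGFBR1 (0.28 ± 0.19, SE, adjusted p = 0.26) and TGFBI (-0.38 ± 0.25, SE, adjusted p = 0.23) were not called, but differed without TE6 siBRDT replicate 1 (0.54, adjusted p = 0.013, and -0.76, adjusted p = 0.0038). TGFB1, TGFB2 and SMAD7 differed by 0.15, 0.54 and -0.29, with adjusted p of 0.45, 0.21 and 0.55.

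For siTP63 in KYSE180 and TE6, 6 of the 9 genes differed (55.0% of all 12780 genes). TGFBR2 rose in KYSE180 and was not called in TE6, a difference (KYSE180 minus TE6) of 2.42 ± 0.20 (SE, adjusted p = 1.2e-07). SMAD3 differed by 1.54 ± 0.19 (SE, adjusted p = 2.4e-06), TGFBR1 by 1.34 ± 0.25 (SE, adjusted p = 2.3e-04) and ID1 by -0.87 ± 0.19 (SE, adjusted p = 7.3e-04), where the rise was larger in TE6. TGFB2 and INHBA passed at 1.46 ± 0.52 (SE, adjusted p = 0.023) and -1.59 ± 0.54 (SE, adjusted p = 0.019). Each was kept by the filter on low values only through treated libraries, TGFB2 in KYSE180 and INHBA in TE6. The TGFB2 difference was lost (1.3 to 1.5, adjusted p of 0.057 to 0.083) without either KYSE180 siTP63 library, either TE6 siCont library or TE6 siTP63 replicate 1. The INHBA difference was lost (-1.47 to -1.20, adjusted p of 0.056 to 0.1) without KYSE180 siCont replicate 2, KYSE180 siTP63 replicate 1, TE6 siCont replicate 1 or TE6 siTP63 replicate 1. Rescaling to equal upper quartiles shifted the median difference of all genes by 0.17, and TGFB1 then passed (0.49, adjusted p = 0.046). TGFB1, SMAD7 and TGFBI differed by 0.31 ± 0.21 (SE, adjusted p = 0.21), 0.79 ± 0.44 (SE, adjusted p = 0.14) and 0.03 ± 0.34 (SE, adjusted p = 0.95). Against KYSE150, no member differed in KYSE180 with limma (1.62% of 11891 genes, 6 of the 9 at an unadjusted p under 0.05) and 2 in TE6 (3.86% of 11645 genes), namely TGFB1 (-1.17 ± 0.28, SE, adjusted p = 0.047) and SMAD3 (-0.96 ± 0.20, SE, adjusted p = 0.03). The TGFB1 difference did not pass (-1.27 to -0.96, adjusted p of 0.061 to 0.19) without any single TE6 library or without KYSE150 siCont replicate 2. That of SMAD3 did not pass (-0.98 to -0.93, adjusted p of 0.052 to 0.17) without either library of TE6 siCont, TE6 siTP63 or KYSE150 siCont. Without KYSE150 siTP63 replicate 2, 5 members differed between TE6 and KYSE150, TGFBR1 (-1.28), TGFBR2 (-1.24) and ID1 (1.93) among them, and ID1 also without KYSE150 siCont replicate 2 (1.87). Without KYSE150 siTP63 replicate 1, 4 members differed between KYSE180 and KYSE150, namely TGFB1 (-0.99), TGFB2 (1.27), INHBA (-1.89) and TGFBR2 (1.99).

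**Figure D3:**
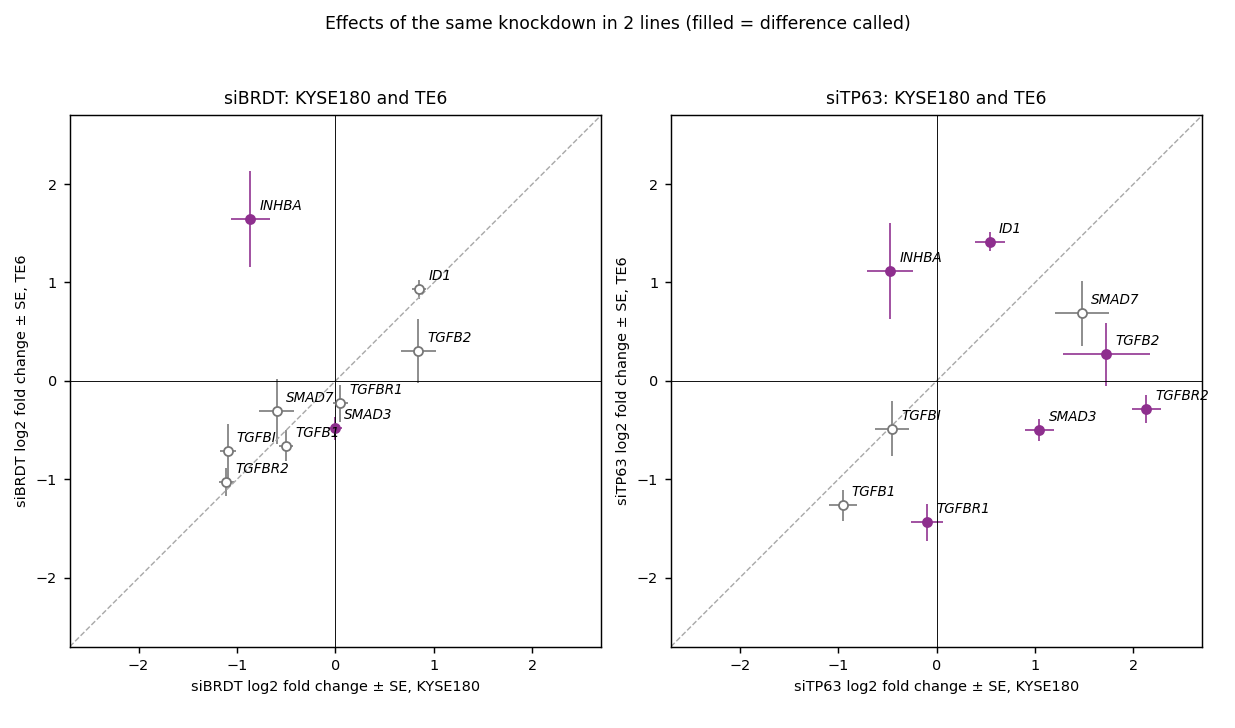
Log2 fold change of each of the 9 genes in KYSE180 (horizontal axis) against TE6 (vertical axis) for siBRDT (left) and siTP63 (right), with bars of 1 SE and a dashed line where both are equal. Filled points are genes whose difference between the lines was called. With siBRDT 7 of the 9 points are open, and with siTP63 TGFBR2 lies at 2.13 and -0.29, far from the line.

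The 2 knockdowns were also set against each other. In KYSE180, where each has its own siCont libraries, the changes of 6 of the 9 genes differed between siBRDT and siTP63 (65.1% of all 13311 genes). The knockdowns were done in separate experiments, so knockdown and experiment cannot be told apart in these differences. TGFBR2 was at 35.7 ± 1.54 RPKM (SD, n = 3) in siCont of the BRDT experiment. In the TP63 experiment it was at 6.64 ± 1.04 with siCont and 41.8 ± 6.29 with siTP63 (SD, n = 2 each). TGFBR2 showed the widest gap, with siBRDT minus siTP63 at -3.24 ± 0.15 (SE, adjusted p = 5.2e-11). SMAD7 (-2.07 ± 0.29, SE, adjusted p = 8.8e-06) and SMAD3 (-1.05 ± 0.15, SE, adjusted p = 7.2e-06) followed, and TGFBI was at -0.64 ± 0.19 (SE, adjusted p = 0.0068), lost without KYSE180 siCont (TP63 experiment) replicate 2 (-0.35, adjusted p = 0.051). TGFB1 fell with both, by more with siTP63 (0.45 ± 0.13, SE, adjusted p = 0.006), but rescaling, which shifted the median of all genes by -0.18, left a difference of 0.27 (adjusted p = 0.077). TGFB2 rose with both, by more with siTP63 (-0.89 ± 0.34, SE, adjusted p = 0.03), and this was lost (-0.93 to -0.75, adjusted p of 0.055 to 0.077) without siCont replicates 1 or 2 or siBRDT replicates 1 or 3 of the BRDT experiment, or without siCont replicate 1 or either siTP63 library of the TP63 experiment. In the TP63 experiment TGFB2 also passed the filter on low values only through its siTP63 libraries. INHBA (-0.39 ± 0.30, SE, adjusted p = 0.27) and TGFBR1 (0.15 ± 0.15, SE, adjusted p = 0.39) were not called. ID1 (0.31 ± 0.15, SE, adjusted p = 0.082) was not called either, but passed without KYSE180 siCont (TP63 experiment) replicate 2 (0.50, adjusted p = 0.0033) and without KYSE180 siTP63 replicate 1 (0.40, adjusted p = 0.049). In TE6 the treated groups were compared directly, with the rule for calls used before. TGFB1 and TGFBR1 were higher with siBRDT than with siTP63, and TGFBR2 and SMAD7 were lower, so 4 of the 9 genes were called (28.4% of all 13333 genes). TGFBR1 had 329 and 229 against 105 and 133 (1.21 ± 0.19, SE, adjusted p = 3.0e-04), and TGFBR2 339.9 and 453 against 668 and 647 (-0.74 ± 0.14, SE, adjusted p = 0.0012). TGFB1 differed by 0.61 ± 0.16 (SE, adjusted p = 0.0081) and lost its call without TE6 siBRDT replicate 2 (0.44, adjusted p = 0.013), without TE6 siTP63 replicate 1 (0.56, adjusted p = 0.078) and without TE6 siTP63 replicate 2 (0.65, adjusted p = 0.052). SMAD7 differed by -1.0 ± 0.33 (SE, adjusted p = 0.031) and lost its call without TE6 siTP63 replicate 1 (-0.78, adjusted p = 0.21) and without TE6 siTP63 replicate 2 (-1.21, adjusted p = 0.066). ID1 rose with both and stood at -0.49 for siBRDT against siTP63 (adjusted p = 0.0021), just outside the limit, and was called without TE6 siBRDT replicate 1 (-0.61, adjusted p = 8.3e-08).

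The wider pathway was taken from a list of 49 further genes in 6 roles. In KYSE180 siBRDT called 14 of the 43 tested lower (15.8% of all genes) and 4 higher (14.5%), with a median of -0.07. Genes are named here among those called with a mean value of at least 100 and no overlap between groups, so more weakly expressed genes, some with larger changes, are left out. The lower genes included LTBP1, which encodes a protein that stores latent TGF-beta in the matrix (455 ± 6.22 to 138 ± 10.4, SD, n = 3 each, -1.72, adjusted p = 1.4e-09), the type I receptor gene ACVR1 (-1.44, adjusted p = 3.6e-07), the TGF-beta-induced inhibitor gene PMEPA1 (-1.12, adjusted p = 5.1e-08) and the activin antagonist gene FST (-1.10, adjusted p = 2.2e-08). The 4 genes named as higher were the stress-induced ligand GDF15 (0.97), the pseudoreceptor BAMBI (0.81), the corepressor SKI (0.64) and the activin antagonist FSTL3 (0.58), the last at 0.44 with the length and GC trend removed. Of the 8 other receptor genes tested, 3 were called lower and none higher. In TE6 siBRDT called 10 of 42 lower (18.1% of all genes) and 4 higher (15.6%; median -0.06), but 5 lower and 4 higher once the length and GC trend was removed, and 4 to 17 in all when single libraries were left out. SMAD2 (1135 ± 90.1 to 568 ± 5.6, SD, n = 2 each, -1.0, adjusted p = 2.3e-05), the matrix gene LTBP4 (-0.99), the coreceptor gene TGFBR3 (-0.81) and the BMP-branch SMAD5 (-0.79) had the lowest values of the genes so limited, and GDF15 (100.2 ± 12.5 to 357 ± 25.7, 1.83, adjusted p = 5.7e-06), FSTL3 (0.77) and JUNB (0.54) rose. With that trend removed, TGFBR3 (-0.49), SMAD5 (-0.41) and FSTL3 (0.33) were no longer called, and JUNB was at -0.074. Without TE6 siCont replicate 2 the calls of JUNB (0.40), SMAD5 (-0.56) and TGFBR3 (-0.78) were lost. Of the 5 signal-transmitting SMADs other than SMAD3, 4 were called lower in TE6, beside the 18.1% of all genes. SMAD5 is among these 4, and its call was lost under the alternatives given above.

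siTP63 in KYSE180 called 20 of the 42 other genes tested higher (23.6% of all genes) and 6 lower (25.7%), with a median of 0.52, before the shift of 0.19 that rescaling brings to all genes. Among receptor genes, 7 of the 8 tested were higher and 1 lower. The matrix gene LTBP2 (85.9 ± 5.32 to 355 ± 3.83, SD, n = 2 each, 2.04, adjusted p = 6.4e-10), the TGF-beta target CTGF, also named CCN2 (118 ± 4.47 to 477 ± 50.5, 2.0, adjusted p = 3.8e-10), the BMP-branch inhibitor SMAD6 (1.69) and the activin receptor ACVR2A (1.01) were the highest under the same limits. FST fell from 1482 ± 68.7 to 86.8 ± 14.9, a log2 fold change of -4.09 ± 0.16 (SE, adjusted p = 4.4e-16). GDF11 (-1.09), ACVR2B (-0.68) and the corepressor TGIF2 (-0.63) were the next lowest under them, and after rescaling ACVR2B (-0.49) and TGIF2 (-0.43) were short of the limit. ACVR2B was also not called without KYSE180 siTP63 replicate 1 (-0.62, adjusted p = 0.056). In TE6 the split was 13 higher (18.3% of all genes) and 8 lower (20.6%) of 42 (median -0.07). SMAD6 (66.6 ± 0.344 to 333 ± 3.4, 2.31, adjusted p = 2.5e-06), the ligand BMP4 (52.3 ± 13.1 to 204 ± 2.1, 1.97, adjusted p = 5.5e-05), FSTL3 (1.38) and ID2 (1.25) were the highest under those limits. Together with ID1 and ID2, ID3 (0.60, adjusted p = 2.0e-04) and ID4 (0.54, adjusted p = 0.023) were called higher, and these last were picked after their values were seen. ID3 and ID4 were called in no other comparison, while ID2 was called higher in 2 of the 6 and lower in 1. SMAD5 (666 ± 146 to 203 ± 2.23, -1.69, adjusted p = 1.0e-05), LTBP4 (-1.10), SMAD4 (-0.83) and TGFBR3 (-0.76) were the lowest under them, and the TGFBR3 call was lost without TE6 siCont replicate 1 (-0.79, adjusted p = 0.052), without TE6 siCont replicate 2 (-0.73, adjusted p = 0.074) and without TE6 siTP63 replicate 1 (-0.61, adjusted p = 0.087). In KYSE150 limma called none of 37 (10 at an unadjusted p under 0.05), edgeR none and DESeq2 1.

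BRDT-OE called 9 of 40 other genes higher (10.5% of all genes) and 9 lower (16.0%), with a median of 0.08, and the same limits on named genes hold. The matricellular activator of latent TGF-beta, THBS1, rose from 34568 ± 5928 to 86178 ± 7432 (SD, n = 3 each, 1.33, adjusted p = 2.3e-05), and CTGF (0.99, adjusted p = 5.7e-06), PMEPA1 (0.87, adjusted p = 2.0e-05) and FST (0.76, adjusted p = 9.3e-05) followed. GDF15 fell from 717 ± 55.7 to 79.8 ± 12.6, a log2 fold change of -3.16 ± 0.13 (SE, adjusted p = 3.7e-07). The cell-cycle inhibitor CDKN2B (-1.36, adjusted p = 1.3e-05), JUNB (-1.28, adjusted p = 3.1e-06) and TGIF1 (-1.24, adjusted p = 1.0e-05) were the next lowest. Between siBRDT and siTP63 in TE6, 7 of 42 were higher with siBRDT and 14 lower. Of all 13333 genes 28.4% were called in either direction, 1902 higher and 1882 lower. GDF15 (1.19), FST (1.02), SMAD5 (0.91) and GDF11 (0.52) were the highest, and SMAD6 (-2.06), BMP4 (-1.3), ID2 (-1.29) and BMPR2 (-0.89) the lowest under those limits. The GDF11 call was lost without TE6 siCont replicate 1 (0.52, adjusted p = 0.065), without TE6 siCont replicate 2 (0.52, adjusted p = 0.068), without TE6 siBRDT replicate 1 (0.40, adjusted p = 0.12), without TE6 siTP63 replicate 1 (0.46, adjusted p = 0.2) and without TE6 siTP63 replicate 2 (0.58, adjusted p = 0.12) and after rescaling (adjusted p = 0.051).

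**Figure D4:**
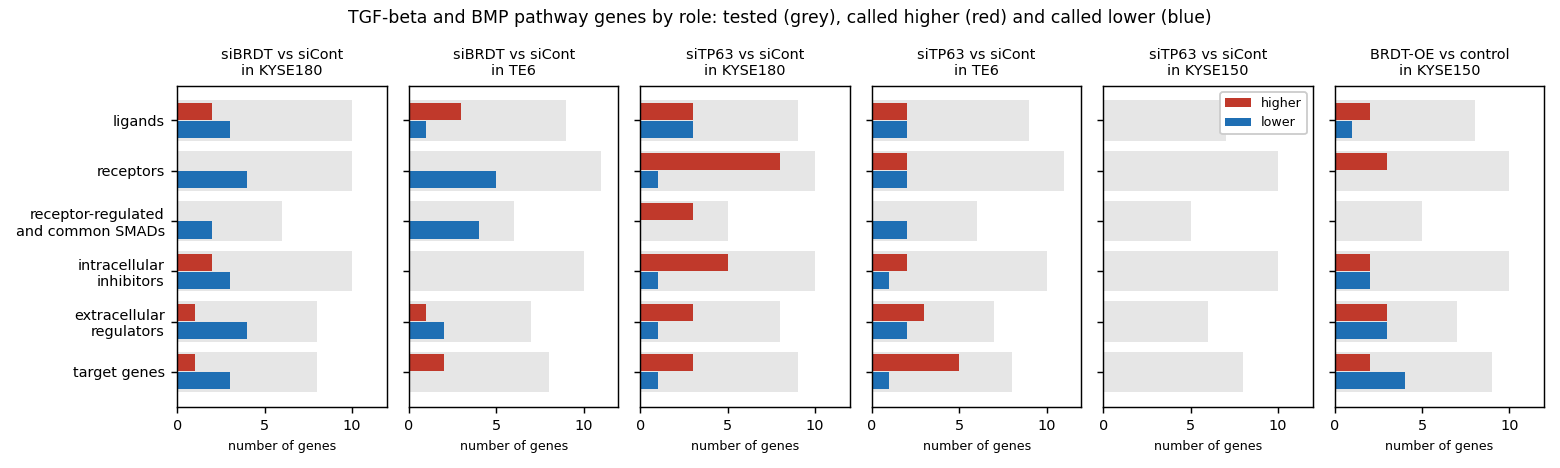
Number of pathway genes (horizontal axis), members included, by role in each of the 6 comparisons: grey bars give the genes tested, red bars those called higher and blue bars those called lower. Of 10 receptor genes tested in KYSE180, 4 were lower and none higher with siBRDT, and 8 were higher and 1 lower with siTP63, beside 15.8% of all genes lower with siBRDT and 23.6% higher with siTP63.

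The gene with the most similar fold changes to each member was found by Euclidean distance over the 6 log2 fold changes, among 11336 other genes tested in all 6 comparisons. The nearest genes were PFKP to TGFB1 (distance 0.481), DZANK1 to TGFB2 (0.43), GPR89B to INHBA (1.09), WDR82 to TGFBR1 (0.445) and PGAM2 to TGFBR2 (0.557). ERBB2IP was nearest to SMAD3 (0.292), TFAP2C to SMAD7 (0.313), CD59 to TGFBI (0.463) and LINC00649 to ID1 (0.587). The median distance of all genes to a member ran from 1.85 to 3.03. No member was nearest to another member, and the TE6 values share control libraries.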

How the data were processed

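RNA-seq libraries (TruSeq V2) of 3 cell lines were analysed from the deposited tables, 5 in all, which hold size-factor normalised read counts per gene (unit: signal). Per the submitters' processing notes the authors used STAR 2.6.0, HTSeq 0.11.2 and DESeq2 1.24.0 on hg38, and whether counting used strand is not given in the sources used here. Each deposited signal value was a whole multiple (within 0.01 read) of 1 step per library, so reads were recovered. Totals were 7582089 to 19372441 reads per library, and a count of 3 reads corresponded to a value of 1.99 to 4.72.

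Genes with a mean value of at least 10 were tested on log2(value + 1) with limma 3.58.1 (R 4.3.3, trended variance, Benjamini-Hochberg adjustment over all genes), within each table. The 3 TE6 groups shared 1 fit. A call needed an adjusted p under 0.05 plus a log2 fold change 0.5 or more away from 0, and for differences of effects the former alone. Alternatives were a pseudocount of 0.1, no filter, no fold-change limit, rescaling to equal upper quartiles, recovered reads in edgeR 4.0.16 or DESeq2 1.42.0, a block for the replicate number, removal of each library's trend on exonic length and GC (splines, 4 degrees of freedom), a fit of 2 TE6 groups and leaving out each library. The fits were tested on simulated data with independent replicates and a fixed spread, which is simpler than the spread of these libraries.

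The 9 genes, the 49 further pathway genes and the tests were chosen with earlier results of these data known. From the further genes, up to 4 per direction are named in each comparison, with a mean value of at least 100, a call and no overlap between groups, besides the targeted genes and the nearest gene to each member. ID3 and ID4 with siTP63 in TE6 were named outside this rule, after their values were seen. RPKM used summed exon lengths of GENCODE release 44. Figures were drawn with matplotlib 3.10.9 (Python 3.11.15).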

Additional observations from a re-analysis of the deposited data

Results flagged for a closer look

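The siBRDT response differed between KYSE180 and TE6 in 2 of the 9 genes by a test of the difference of log2 fold changes (limma, Benjamini-Hochberg), where 41.9% of all genes differed. INHBA, the activin subunit gene, was at -0.864 in KYSE180 and 1.65 in TE6, a difference of -2.51 (adjusted p = 4.1e-04), with 5 to 25 reads per library in TE6. There it passed the filter on low values only through treated libraries. SMAD3 was at -0.01 and -0.48, a difference of 0.477 (adjusted p = 0.0063).

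The siTP63 response differed between the same lines in 6 of the 9 genes, where 55.0% of all genes differed. The receptor genes TGFBR2 (2.13 against -0.29, difference 2.42) and TGFBR1 (-0.10 against -1.44, difference 1.34) both stood higher in KYSE180, as did SMAD3 (1.05 against -0.50, difference 1.54) and the weakly expressed ligand gene TGFB2 (1.73 against 0.27, difference 1.46). INHBA (-0.47 against 1.12, difference -1.59) and ID1 (0.54 against 1.42, difference -0.873) stood higher in TE6. The TGFB2 and INHBA differences depended on single libraries. Both genes passed the filter on low values only through treated libraries, TGFB2 in KYSE180 and INHBA in TE6.

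Between TE6 and KYSE150 the siTP63 response differed in TGFB1 (-1.26 against -0.09, difference -1.17) and in SMAD3 (-0.50 against 0.46, difference -0.956), where 3.86% of all genes differed, and each was lost without some single libraries.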

How the results depend on the processing

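Of the members' values under alternatives that kept all libraries, 527 had the direction and the side of the threshold reported, 12 lost a call, 8 gained one and 11, all of genes not called, changed sign. With a library left out these numbers were 689, 49, 24 and 30. Depth limits INHBA in TE6 and TGFB2 in the TP63 experiment of KYSE180, which had under 10 reads in the siCont libraries, and the KYSE150 siTP63 comparison had 2 libraries a group. Causes were not tested.

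Dropping the fold-change limit gave 30 other pathway genes and 7937 of all genes in KYSE180 with siBRDT, and 6521 of all genes with BRDT-OE. The fit of only 2 TE6 groups called 5 members with siTP63. In KYSE150 with siTP63, DESeq2 called 1 other pathway gene and 461 of all genes, removing the length and GC trend 518, and testing without the filter 45. In TE6 with siBRDT, removing that trend left 9 other pathway genes. For the differences from KYSE150, rescaling left 1 other pathway gene against KYSE180, and the pseudocount of 0.1 left 1 against TE6.

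Same-numbered libraries did not deviate together in every pair (correlations of deviations from -0.70 to 0.18), so the numbers were not taken as a pairing. In the replicate block fits, KYSE150 with siTP63 had 0 members, 1 other pathway gene and 137 of all genes called, the difference from KYSE180 had 0 other pathway genes and 0 of all genes, and that from TE6 had 0 members, 0 other pathway genes and 61 of all genes. The block also removed the siBRDT against siTP63 call of GDF11 in TE6 (0.52, adjusted p = 0.059) and gave one to the ID1 difference of the knockdowns in KYSE180 (0.31, adjusted p = 0.013), and it changed no other call of a member. A crossed pairing in KYSE150, added after seeing the data, called 5 members, 13 other pathway genes and 3400 of all genes.

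Signs changed as follows. With siBRDT in KYSE180, SMAD3 was at 0.0166 after rescaling, 0.0096 with edgeR and 0.0319 with the trend removed. Trend removal also put JUNB at -0.074 and TGFBR1 at 0.124 with siBRDT in TE6, and BRDT at 0.0811 with siTP63 in TE6. Rescaling put BRDT at 0.146 and TGFBR1 at 0.0973 with siTP63 in KYSE180, the TGFBR1 difference of the knockdowns at -0.0313, and TGFB2 at -0.0592 and TGFBI at -0.0157 with BRDT-OE, where TGFB2 was at -0.000117 with edgeR and -0.0417 with the trend removed. The pseudocount of 0.1 put the INHBA difference of TE6 and KYSE150 at 0.0035.

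With 1 library left out, calls in TE6 with siBRDT ranged over 2 to 6 members, 4 to 17 other pathway genes and 2993 to 4943 of all genes, and with siTP63 over 3 to 5 members. In KYSE150 with siTP63 they were 0 to 1, 0 to 1 and 242 to 307, and for siBRDT against siTP63 in TE6 2 to 5, 13 to 22 and 2498 to 4549. Differences of the siBRDT effects covered 2 to 4 members and 11 to 22 other genes. Differences of the siTP63 effects covered 0 to 4, 0 to 12 and 0 to 2932 for KYSE180 and KYSE150, highest without KYSE150 siTP63 replicate 1, and 0 to 5, 0 to 12 and 64 to 3012 for TE6 and KYSE150, highest without its replicate 2. Log2 values that changed sign ran as follows. With siBRDT, SMAD3 ran from -0.0482 to 0.045 and TGFBR1 from -0.00689 to 0.0979 in KYSE180, and SMAD7 from -0.654 to 0.0342 and TGFBR1 from -0.487 to 0.0317 in TE6. With siTP63, BRDT ran from -0.108 to 0.00936 and TGFBR1 from -0.213 to 0.0185 in KYSE180, and ID1 from -0.518 to 0.393 and TGFB1 from -0.307 to 0.126 in KYSE150. With BRDT-OE, TGFB2 ran from -0.111 to 0.161. For siBRDT against siTP63 in TE6, SMAD3 ran from -0.0621 to 0.0909, TGFB2 from -0.121 to 0.193 and TGFBI from -0.614 to 0.15. The siBRDT differences of KYSE180 and TE6 ran from -0.198 to 0.0399 for ID1, -0.629 to 0.0586 for SMAD7, -0.017 to 0.326 for TGFB1, -0.761 to 0.00256 for TGFBI and -0.289 to 0.124 for TGFBR2. The siTP63 differences ran from -0.265 to 0.328 for TGFBI between KYSE180 and TE6, and from -0.646 to 0.447 for INHBA and -0.411 to 0.51 for SMAD7 between TE6 and KYSE150.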
